A study of Rattus norvegicus with 8 samples.

Results

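Expression of Gap43, Map1b, Map2 and Mapt, 4 genes of the neuronal cytoskeleton, was followed in the lower lumbar spinal cord of the rat. They were set by their Ensembl identifiers (ENSRNOG00000001528, ENSRNOG00000017428, ENSRNOG00000011841 and ENSRNOG00000005133), with no threshold on their values, and make up 4 of the 32883 genes of the deposited table. The study asked how a spinal injury changes gene expression in intact cord below it. Injured libraries (n = 4) came from Sprague Dawley rats, an outbred strain, 4 days after a hemisection, a cut through one side of the cord, at thoracic level 9. Uninjured libraries (n = 4) came from the same strain and tissue, without spinal cord injury. The labels used here do not say whether uninjured rats had sham surgery, which side of the cord was taken, the age or sex of the rats, or whether each library was a separate animal, so p-values cover only the spread among libraries, which may be technical.

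Axons grow and are maintained on a scaffold of microtubules. Gap43 is a protein of the growth cone membrane and a classic marker of axon growth and regeneration. It is a substrate of protein kinase C, binds calmodulin and acts on the actin cytoskeleton. Map1b, Map2 and Mapt (tau) bind and stabilise microtubules: Map1b is prominent in growing axons, Map2 is enriched in dendrites and cell bodies, and tau is enriched in axons. Map2 and tau share related microtubule-binding repeats. All of these proteins are made mainly by neurons, although oligodendrocytes also make some of them. In a tissue extract fewer cells of a type and less RNA per cell cannot be told apart.

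Libraries were made with CEL-Seq2, which reads the 3' end of polyadenylated transcripts and counts each tagged molecule once. One transcript therefore gives at most 1 molecule whatever its length, and splice forms of tau or Map2 that share a 3' end are counted together. Totals ran from 119808 to 405537 molecules, and replicate 3 was the shallowest in both groups. In those 2 libraries the 10 most abundant genes took 24.6% (uninjured) and 18.5% (injured) of the molecules, against 8.88% to 13.3% in the other 6. All 4 genes were detected in all 8 libraries, with at least 60 molecules of each, and all passed the filter on low counts that left 4159 tested genes. The identifiers could not be paired with symbols beyond these 4 genes, so other growth cone genes, tubulins, motors and markers of neurons and glia were not analysed here, and a part of cell composition in any value below was not tested.

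Upstream sequences are shown for Map1b and Map2, a pair whose ratio to each other is followed below. Of the 4 genes, these 2 had an entry in the RefSeq promoter table (build GRCr8). Each sequence is the 250 bases before the annotated start of the gene, which may not be the start used in spinal cord, 5′ to 3′ on the gene's strand. Capitals mark a match to the letters of the TATA box. Map1b lies at chr2:32644472-32644721 (minus strand) and Map2 at chr9:75346440-75346689 (plus strand).
Map1b: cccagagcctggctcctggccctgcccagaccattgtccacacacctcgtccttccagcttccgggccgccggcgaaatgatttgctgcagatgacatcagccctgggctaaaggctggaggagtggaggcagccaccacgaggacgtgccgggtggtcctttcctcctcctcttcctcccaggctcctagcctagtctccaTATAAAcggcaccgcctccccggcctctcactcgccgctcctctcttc
Map2: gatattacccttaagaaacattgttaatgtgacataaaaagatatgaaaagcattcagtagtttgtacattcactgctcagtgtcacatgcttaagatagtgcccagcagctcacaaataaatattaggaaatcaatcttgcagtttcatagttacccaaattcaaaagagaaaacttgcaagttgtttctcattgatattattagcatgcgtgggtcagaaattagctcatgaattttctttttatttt
The Map1b sequence has a GC content of 63.6% and 13 CG dinucleotides, and the Map2 sequence 32.0% and 1, where the median of 33469 rat sequences of the same length was 51.2% and 5. Both strands were searched for the letters TATAAA of the TATA box, for the letters CCAAT of the CAAT box, for the letters GGGCGG of the GC box and for the letters CACGTG of the E-box. These letters occur in 12.9%, 34.0%, 30.5% and 5.59% of all those sequences. The only match was to the TATA box letters in the Map1b sequence. It starts 48 bases before the annotated start and overlaps none of the other motifs. Whether it acts as a TATA box was not tested. The counts come from 3' ends and do not show which start a molecule used.

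Without injury, Map1b had the highest level of the 4, followed by Mapt, Map2 and Gap43. In CPM, which are molecules relative to the TMM-scaled total of tested genes, Map1b stood at 2001 ± 535, Mapt at 1253 ± 112, Map2 at 902 ± 158 and Gap43 at 751 ± 138 (SD, n = 4 each). The order Map1b above Mapt above Map2 held within each of the 8 libraries. Uninjured libraries did not overlap between Map1b and Mapt or between Mapt and Map2, while Map2 and Gap43 did overlap. These are levels of captured 3' ends, and capture may differ between genes. With injury, Gap43 ran from 478 to 1619 CPM and spanned the levels of Map2 and Mapt, and it had more molecules than Mapt in 2 injured and 0 uninjured libraries. Together the 4 genes took 0.466% ± 0.129 of all molecules in uninjured and 0.438% ± 0.0454 in injured libraries (SD, n = 4 each).

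At 4 days after injury none of the 4 genes passed the test: Gap43 had a fitted fold of 1.51, and Map1b, Map2 and Mapt had folds of 0.87, 0.85 and 0.82, with 95% intervals that all included no change. Over all genes, 41 of 4159 were called, 0.986% and all of them higher, so that 0% were called lower. Calls used edgeR's quasi-likelihood method with a threshold of 0.05 on p adjusted by Benjamini-Hochberg. Among the 4 genes, 0 were called and 0 had an unadjusted p under 0.05, and DESeq2 and limma-voom also gave 0 and 0. Before adjustment, 5.34% of all tested genes were higher and 2.5% lower at this threshold. The fitted difference was positive for Gap43 and negative for Map1b, Map2 and Mapt. No gene had all injured libraries on one side of all uninjured ones, which 3.08% of tested genes had above and 1.78% below.

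**Figure D1:**
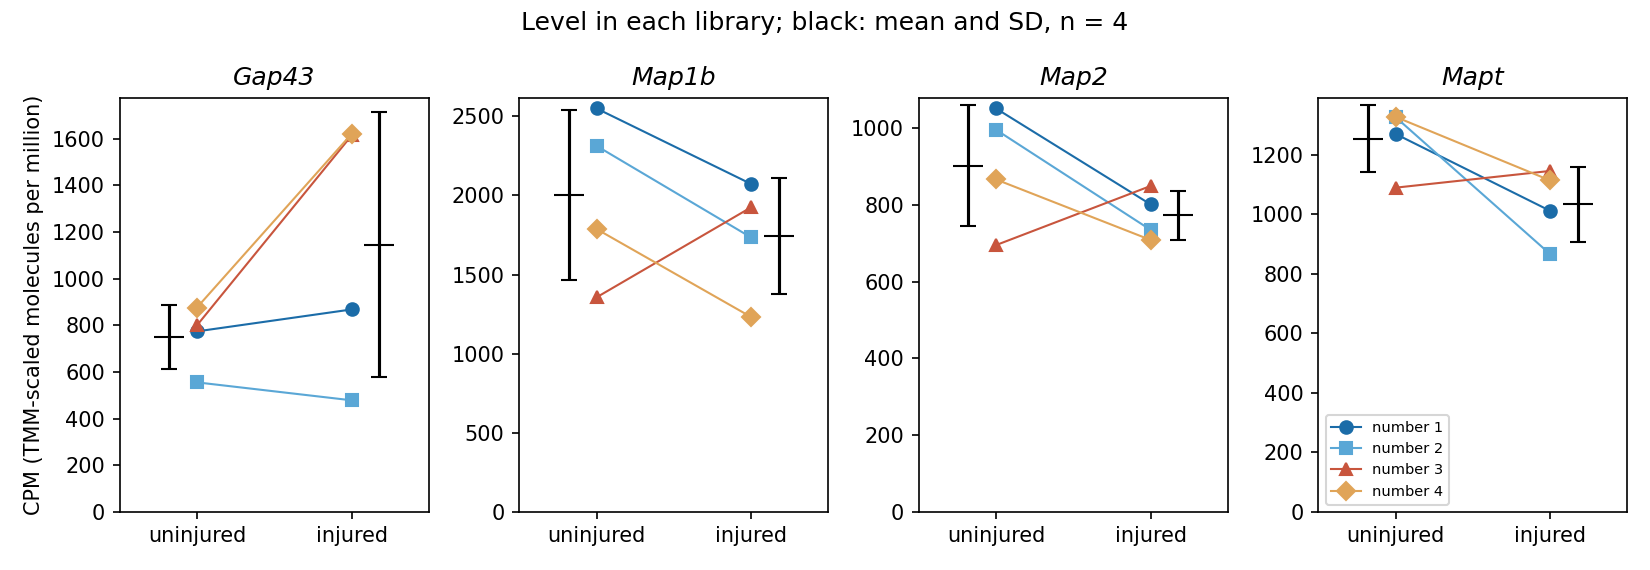
CPM of each gene (vertical axis, from 0) in uninjured and injured libraries, with lines joining libraries of the same replicate number and black bars for the mean and SD (n = 4). Gap43 ran from 478 to 1619 in injured libraries against 555 to 876 in uninjured ones, and the groups overlapped for all 4 genes.

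Gap43, the growth cone protein, was the most uneven of the 4 after injury. Uninjured replicates 1 to 4 held 301, 126, 69 and 365 of its molecules, which is 774, 555, 799 and 876 CPM. In injured replicates 1 to 4 there were 314, 179, 207 and 384 molecules, which is 868, 478, 1613 and 1619 CPM. Injured replicates 3 and 4 lay above all uninjured libraries, injured replicate 1 lay within their range, and injured replicate 2 was the lowest of all 8. The mean was 751 ± 138 CPM without and 1145 ± 567 CPM with injury (SD, n = 4 each), so that the SD was 4.12 times as large in injured libraries. Its fitted log2 fold change was 0.60 (SE 0.33, edgeR adjusted p = 0.773, unadjusted p = 0.0842). The 95% interval of the fold ran from 0.94 to 2.43, and a rise of 2-fold was thus not excluded. An exact two-sided permutation test of log2(CPM + 10) gave p = 0.343. Among tested genes, 92.6% had a smaller log2 fold change than Gap43.

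Both groups carry replicate numbers 1 to 4 in their titles, and the Gap43 difference depended on which numbers were compared. In numbers 3 and 4 alone the log2 fold change was 0.93 (edgeR adjusted p = 0.9995, unadjusted p = 0.019). In numbers 1 and 2 alone it was 0.01 (edgeR adjusted p = 0.994, unadjusted p = 0.963). It was 0.86 without injured replicate 2 (edgeR unadjusted p = 0.00707), 0.37 without injured replicate 4 (0.272) and 0.38 without injured replicate 3 (0.279). No adjusted p of these was under 0.369. The share of all tested genes with an unadjusted p under 0.05 in these settings is not given here. Injured replicates 3 and 4, with the high Gap43 levels, were also the 2 shallowest injured libraries, at 153060 and 257354 molecules against 358817 and 378725 in injured replicates 1 and 2. Their 10 most abundant genes took 18.5% and 13.3% of molecules, against 9.23% and 9.55%, a share that mainly follows depth. A part of depth in the Gap43 levels was not tested. As a share of all molecules, without TMM scaling, Gap43 was 0.149% in injured replicate 4 (exact 95% binomial interval 0.135% to 0.165%) and 0.0473% in injured replicate 2 (0.0406% to 0.0547%). These 2 intervals, which cover counting error only, did not overlap.

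Map1b, the microtubule-binding protein of growing axons, had 992, 525, 117 and 745 molecules in uninjured replicates 1 to 4, or 2549, 2313, 1356 and 1788 CPM. Injured replicates 1 to 4 had 750, 649, 247 and 292 molecules, or 2072, 1734, 1925 and 1231 CPM. The lowest uninjured library was replicate 3, and the lowest injured library was replicate 4. The mean was 2001 ± 535 CPM without and 1741 ± 367 CPM with injury (SD, n = 4 each). Its fitted log2 fold change was -0.21 (SE 0.26, edgeR adjusted p = 0.984), and the 95% interval of the fold ran from 0.59 to 1.27.

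Map2, the dendritic microtubule-associated protein, had 409, 226, 60 and 361 molecules in uninjured replicates 1 to 4, or 1051, 996, 695 and 866 CPM. Injured replicates 1 to 4 had 290, 275, 109 and 168 molecules, or 801, 735, 849 and 709 CPM. All 4 injured libraries lay below uninjured replicates 1, 2 and 4 and above uninjured replicate 3, which was the lowest of all 8. The mean was 902 ± 158 CPM without and 773 ± 63.9 CPM with injury (SD, n = 4 each). Its fitted log2 fold change was -0.23 (SE 0.22, edgeR adjusted p = 0.984), and the 95% interval of the fold ran from 0.62 to 1.17.

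Mapt, which encodes tau, had 494, 301, 94 and 553 molecules in uninjured replicates 1 to 4, or 1270, 1326, 1089 and 1327 CPM. Injured replicates 1 to 4 had 366, 324, 147 and 264 molecules, or 1011, 866, 1145 and 1113 CPM. Uninjured replicates 1, 2 and 4 lay above all injured libraries, and uninjured replicate 3 lay among them. The mean was 1253 ± 112 CPM without and 1034 ± 126 CPM with injury (SD, n = 4 each). Its fitted log2 fold change was -0.28 (SE 0.22, edgeR adjusted p = 0.919), and the 95% interval of the fold ran from 0.60 to 1.12. For Map1b, Map2 and Mapt these intervals excluded a fall of 2-fold or more and a rise of 2-fold or more. The exact two-sided permutation test of log2(CPM + 10) gave p = 0.486 for Map1b, 0.2 for Map2 and 0.0857 for Mapt.

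**Figure D2:**
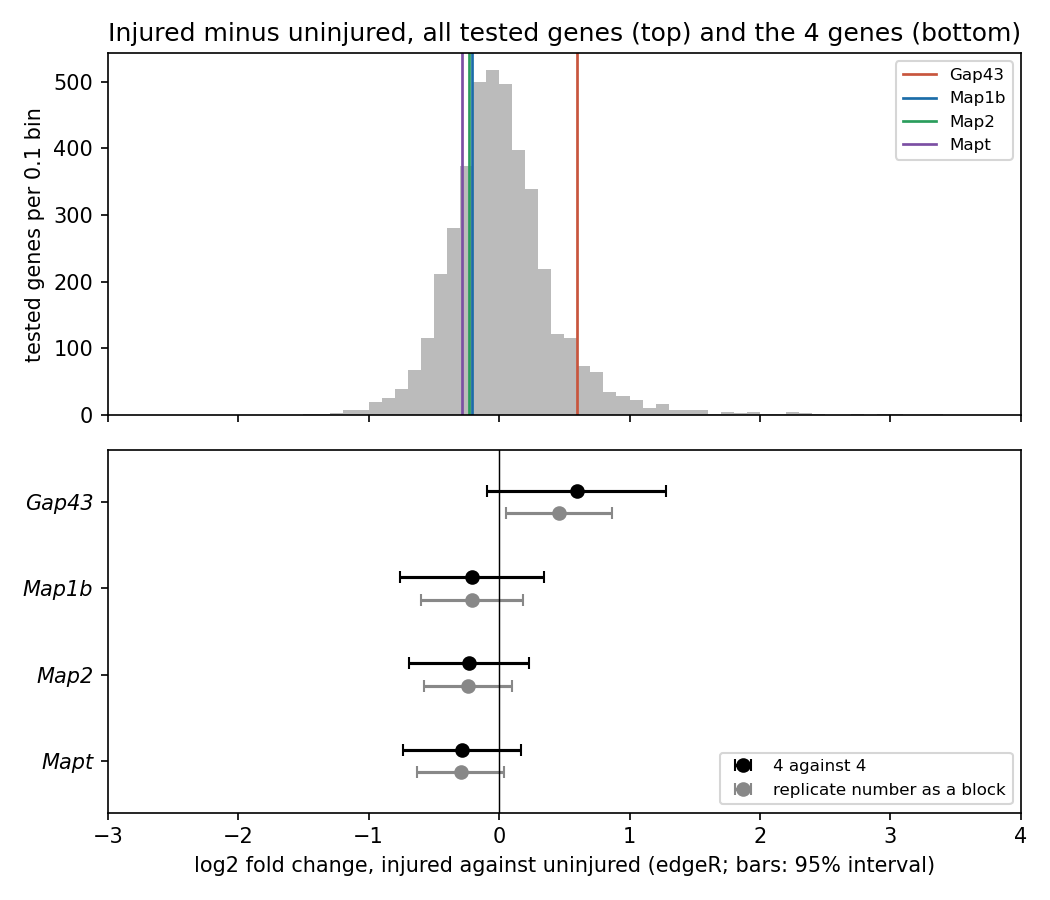
Top, number of the 4159 tested genes per 0.1 of log2 fold change, injured against uninjured, with vertical lines at the 4 genes. Bottom, log2 fold change and 95% interval of each gene with all 8 libraries (black) and with replicate number as a block (grey). Map1b, Map2 and Mapt lie between -0.21 and -0.28 and Gap43 at 0.60, and all black intervals include 0. The grey interval of Gap43 runs from 0.05 to 0.87 and excludes 0, and the other grey intervals include 0.

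Across all genes, departures from group means correlated between same-numbered libraries, at 0.39, 0.36 and 0.45 for numbers 1, 2 and 4. For number 3 the correlation was 0.17, no higher than between the different numbers 1 and 2 (0.24 and 0.17). On this basis, which the labels do not state, each gene was also compared within numbers. Map1b, Map2 and Mapt were lower in injured libraries of numbers 1, 2 and 4 and higher in number 3. Lower CPM in at least 3 of 4 numbers was found for 36.2% of tested genes. For number 3 the log2 difference was 0.51 for Map1b, 0.29 for Map2 and 0.07 for Mapt. In the other numbers it ranged from -0.30 to -0.54 for Map1b, from -0.29 to -0.44 for Map2 and from -0.25 to -0.62 for Mapt. Gap43 differed by 0.17, -0.21, 1.01 and 0.89 in numbers 1 to 4.

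**Figure D3:**
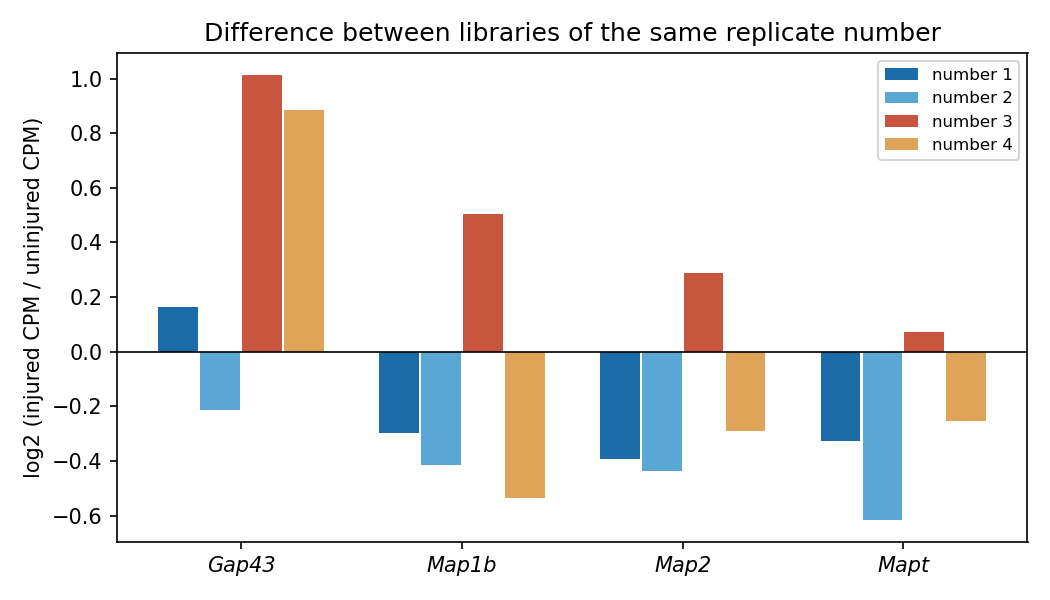
Log2 of injured over uninjured CPM (vertical axis) between libraries of the same replicate number, for each gene. Number 3 is the only one above 0 for Map1b, Map2 and Mapt, and the Gap43 bars of numbers 3 and 4 reach 1.01 and 0.89.

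With replicate number as a block none of the 4 genes was called, while 94 genes (2.26%) were called higher and 16 (0.385%) lower. Gap43 had a log2 fold change of 0.46 in this fit (edgeR adjusted p = 0.284). Its unadjusted p was 0.0294, and 8.54% of tested genes were higher at an unadjusted p under 0.05. With numbers 1 and 2 against 3 and 4 as a term in place of the block, Gap43 had a log2 fold change of 0.47 (edgeR adjusted p = 0.439, unadjusted p = 0.0509). Mapt had a log2 fold change of -0.30 with the block (edgeR adjusted p = 0.437). A further setting, chosen after seeing the data, kept the block and left out both libraries numbered 3. Number 3 was the only one in which Map1b, Map2 and Mapt were higher with injury, so its removal favours lower calls for them. The calls are therefore no separate support for a fall. In this setting 2 of the 4 genes were called lower, where 2.38% of 4660 tested genes were. Map1b then had a log2 fold change of -0.41 (edgeR adjusted p = 0.0459) and Mapt one of -0.40 (edgeR adjusted p = 0.0356). Map2 had -0.37 (edgeR adjusted p = 0.0537) and Gap43 0.32 (edgeR adjusted p = 0.291). Limma-voom with the same libraries and block also called Map1b (adjusted p = 0.0221) and Mapt (adjusted p = 0.0346) and not Map2 (adjusted p = 0.0546), where 2.25% of tested genes were called lower. Without the block, the same 6 libraries gave no call among the 4 genes.

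Ratios between genes of 1 library are free of library scaling and compare the difference in one gene with that in another. They are not free of the loss of molecules that carry the same identifier, which grows with the count. Correcting for it would add 14.5% to the highest Map1b count and 5.35% to the highest Map2 count. The ratios were not recomputed with this correction. Among the 3 microtubule-associated genes, ratios overlapped between the groups for each pair. Map1b had 2.42, 2.32, 1.94 and 2.06 molecules per Map2 molecule in uninjured replicates 1 to 4 and 2.58, 2.36, 2.26 and 1.74 in the injured ones. The log2 ratio of Map1b to Map2 differed between groups by 0.02 (exact two-sided permutation test, p = 0.943), that of Map1b to Mapt by 0.09 (p = 0.8) and that of Map2 to Mapt by 0.07 (p = 0.6). Adjusted over the 6 pairs of genes, these p were 0.943, 0.943 and 0.9. Leaving out 1 library moved the first between -0.053 and 0.14, the second between -0.014 and 0.29 and the third between 0.01 and 0.15.

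Gap43 was higher relative to each of the microtubule-associated genes in the injured library of all 4 numbers. These ratios share the Gap43 counts and are not independent of each other. In number 2 the CPM of Gap43 was itself lower with injury (log2 difference -0.21), and the microtubule-associated genes were lower by more. In CPM, 10.7% of tested genes were higher in all 4 numbers, and Gap43 was not among them. That share is of another measure than the ratios. The microtubule-associated genes were themselves lower in CPM with injury in numbers 1, 2 and 4. How many other tested genes were higher relative to them in all 4 numbers was not counted, so the pattern cannot be called particular to Gap43. Gap43 had 0.61, 0.42, 0.74 and 0.66 molecules per Mapt molecule in uninjured replicates 1 to 4 and 0.86, 0.55, 1.41 and 1.45 in the injured ones. The groups overlapped, because injured replicate 2 lay below 3 of the uninjured libraries. The log2 ratio differed by 0.74 for Gap43 to Mapt, by 0.67 for Gap43 to Map2 and by 0.65 for Gap43 to Map1b, with exact two-sided permutation p of 0.143, 0.229 and 0.343 (p = 0.686 for each after Benjamini-Hochberg adjustment over 6 pairs of genes). Leaving out 1 library moved these differences from 0.56 to 1.02 for Mapt, from 0.41 to 1.01 for Map2 and from 0.27 to 1.02 for Map1b. The lowest of these came without injured replicate 4 and the highest without injured replicate 2. The difference by number ran from 0.40 to 1.14 for Mapt, from 0.22 to 1.17 for Map2 and from 0.20 to 1.42 for Map1b. An exact paired sign-flip test gave p = 0.125 for each, the smallest that 4 pairs allow, and p = 0.25 after adjustment over the 6 pairs of genes.

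**Figure D4:**
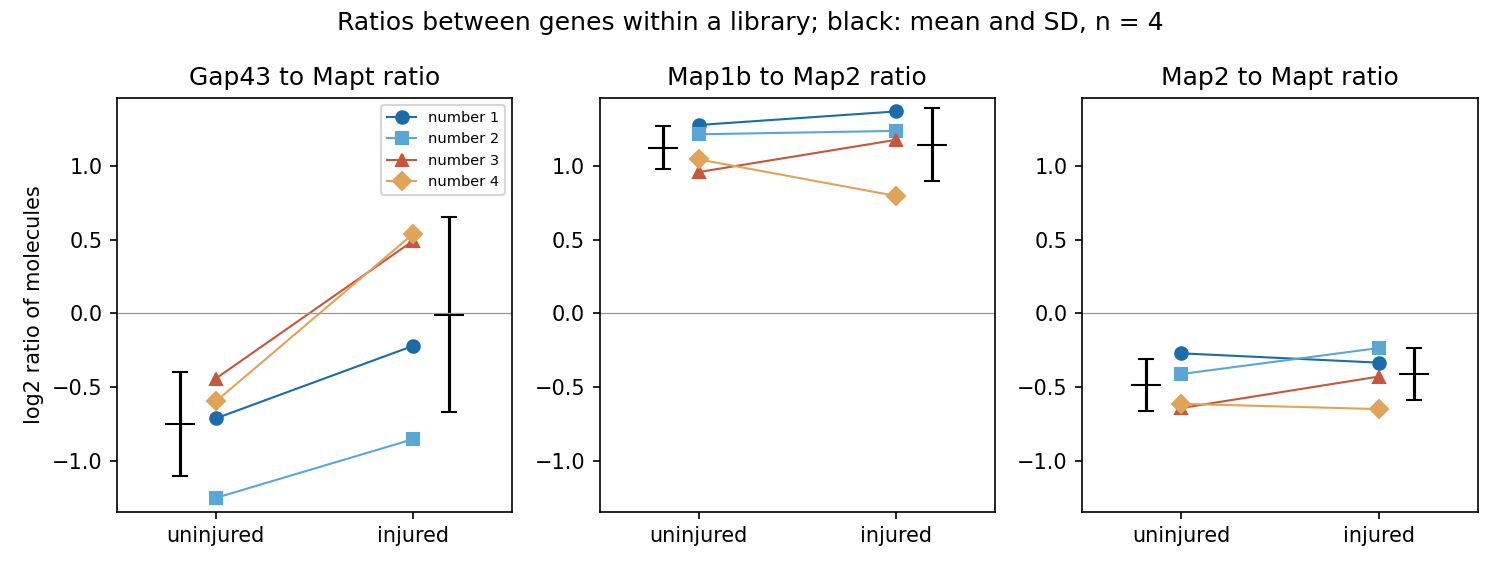
Log2 ratio of molecules between genes within a library (vertical axis, same scale in each panel), with lines joining libraries of the same replicate number and black bars for the mean and SD (n = 4). The Gap43 to Mapt ratio is higher in the injured library on all 4 lines, by 0.40 to 1.14, while the group means of Map1b to Map2 and of Map2 to Mapt differ by 0.02 and 0.07.

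Among 1069 other tested genes that averaged at least 50 molecules per library, the pattern most like that of the 4 genes summed belonged to ENSRNOG00000017052 and ENSRNOG00000023935. Pearson's r of log2 CPM over the 8 libraries was 0.90 and 0.89, as a description of the best of many genes. Map1b, with the highest mean level of the 4, weighs most in the sum. The first had 130, 65, 12 and 108 molecules in uninjured and 111, 60, 35 and 50 in injured replicates 1 to 4, and its log2 fold change was -0.16 (edgeR adjusted p = 0.991). Like all 4 genes, it had its fewest molecules in uninjured replicate 3, but that library had the fewest molecules in total, so the raw counts alone are no sign of likeness. As a share of all molecules, the 4 genes together were also lowest in that library, at 0.284%. How far r rests on that library, with 12 molecules of the first gene, was not tested.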

How the data were processed

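The deposited values are counts: the authors gave whole numbers of molecules per Ensembl gene for 8 libraries, without normalization. Alignment tools were HISAT2 2.0.4 and HTSeq 0.6.0 on Rnor_6.0, per the submitters' processing notes; how identifiers were collapsed, and the annotation release, were not given in the sources used here.

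Genes were kept with edgeR's filterByExpr (minimum count 10, minimum total 15). Testing used edgeR 4.0.16 (quasi-likelihood F test, R 4.3.3, TMM factors, robust), two-sided, on all 4159 genes and adjusted by Benjamini-Hochberg, with a threshold of 0.05; standard errors come from the F statistic. The test was checked on simulated data with independent libraries and changes larger than those fitted here, so the check does not bear on the results above. DESeq2 1.42.0 and limma 3.58.1 were alternatives. For ratios, 0.5 molecules were added to each count. The 6 pairs of genes were tested by exact permutation of the 8 libraries (smallest p 0.0286).

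Same-numbered libraries correlated in their deviations from group means (0.39, 0.36, 0.17 and 0.45 for numbers 1 to 4), so the number was treated as a pair on the data, not on a stated design. Some different numbers correlated as strongly as numbers 3 did: 0.24 and 0.17 between numbers 1 and 2, and 0.16 between uninjured 3 and injured 4. A fit with numbers 1 and 2 against 3 and 4 as a term was also run. No 2 libraries of a group agreed within sampling noise. Counts peaked between 3989 and 4080 in every library, close to the 4096 identifiers that 6 bases allow, although no source used here states the identifier length. A correction for repeated identifiers would add 14.5% to the highest Map1b count and 5.00% to 7.43% to those of the other genes.

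The 4 genes are named whatever their values, and the 2 genes most like their sum by identifier only. The choice of the 4 genes, and of the lists that could not be used, was made with earlier results of these data known, although it applied no cutoff to them. The reference table (GRCr8) pairs 0 of its 47357 genes with an Ensembl identifier, which left other cytoskeletal genes and cell type markers without names. Plots used matplotlib 3.10.9.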

Additional observations from a re-analysis of the deposited data

How the results depend on the processing

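The fitted difference was positive for Gap43 and negative for Map1b, Map2 and Mapt under every alternative run, and none of these 4 genes was called in any except those that combined the replicate block with leaving out both libraries numbered 3, added after seeing the data. There the log2 fold change was -0.41 for Map1b and -0.40 for Mapt with edgeR, and -0.42 and -0.40 with limma-voom. Number 3 was the only number in which these genes were higher with injury. Leaving out 1 library moved Gap43 between 0.37 and 0.86, Map1b between -0.35 and -0.07, Map2 between -0.33 and -0.15 and Mapt between -0.35 and -0.20. Other settings gave almost no difference: Gap43 was 0.01 in numbers 1 and 2 alone. Map1b was -0.02 and Map2 -0.03 in numbers 3 and 4 alone. All alternatives reuse the same libraries, so their shared signs are no separate support for a direction. The block alone, which pairs libraries by replicate number, changed no call among the 4 genes: the log2 fold change was 0.46 for Gap43, -0.21 for Map1b, -0.24 for Map2 and -0.30 for Mapt. The number of genes called among all tested was 98 with no filter on low counts, 110 with the replicate block, 122 with the block in limma-voom, 62 without both libraries numbered 3, 383 and 370 when the block was added to that (edgeR and limma-voom), 86 in numbers 1 and 2 alone, 3 in numbers 3 and 4 alone and 72 with these 2 sets as a term. It was 23 to 77 without 1 library. The log2 ratio difference of Map1b to Map2 changed sign on leaving out 1 library, over a range from -0.053 to 0.14, and so did that of Map1b to Mapt, from -0.014 to 0.29. Neither passed a test in any setting. The causes of these moves were not tested. Depth limits uninjured replicate 3, where 1 molecule is 11.6 CPM and Map2 rests on 60 molecules.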
